A study of Polistes metricus with 16 samples.

Results

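Brains of 8 adult worker paper wasps, Polistes metricus, were compared by the nest on which they had lived as adults, 4 from nests of another species against 4 from nests of their own. These are 8 of the 16 wasps of the series, and they were taken by their labels. The allospecific group (MW30, MW32, MW41 and MW47) was housed on nests of Polistes fuscatus, and the conspecific group (MW21, MW25, MW40 and MW42) on P. metricus nests other than the one of birth. All 8 were adult females taken at Ann Arbor in 2012, stayed at least 1 week on the foreign nest, were trained to P. fuscatus faces in a T-maze over 40 trials with negative reinforcement, and were killed 30 minutes after the last trial. MW21 was collected in June and the other 7 workers in July, so 0 of the 4 allospecific wasps and 1 of the 4 conspecific wasps came from June. Every worker had been moved to a nest that was not its own and every worker was trained to faces. The groups thus do not differ in whether they were moved or trained. Only the allospecific group had moved to another species, and only it had lived on nests of the species whose faces served in training. These cannot be told apart in this comparison. The labels do not say on which nest each wasp was born or kept, and wasps of a group may have shared one. Of the 127674 transcript identifiers, 52023 had 10 or more counts in 4 or more of these 8 libraries, and all 52023 were tested.

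Workers are the daughters of the queens, called foundresses, that start Polistes nests in spring, and they forage and rear brood on the nest. P. fuscatus wasps have variable faces and learn the faces of individual nestmates, whereas P. metricus is not known for such recognition. P. fuscatus nestmates of a worker would therefore have individually distinct faces. The comparison asks whether the host nest as a whole goes with differences in brain RNA. It cannot tell faces apart from anything else that differs between nests of P. fuscatus and of P. metricus. The identifiers are not paired with gene names in the files, so no gene is named, no marker of brain cells could be looked up to check the labelled tissue, and neighbouring identifiers can be pieces or variants of 1 gene.

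Libraries held 14949149 to 20528177 counts, and the tested transcripts held 99.3% to 99.4% of them. The scaling factors of the TMM method, which correct for a few transcripts taking up much of a library, ran from 0.8405 in MW21 to 1.08 in MW41. No pair within a nest group looked like 1 library deposited a second time, with a chi-square of at least 13.7 per degree of freedom between allospecific and 6.97 between conspecific wasps. The lowest of all pairs, 5.89, was between MW32 and MW42 from opposite nests. Each library counted as 1 wasp.

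The whole brain profiles of allospecific and conspecific workers did not separate by the test. Profiles were compared as log2 CPM, the TMM-scaled counts per library on a common total, and the distance of a pair is the mean squared difference of log2 CPM per transcript. Pairs of allospecific wasps lay 0.260 to 0.347 apart with a median of 0.312, and pairs of conspecific wasps lay 0.205 to 0.393 apart with a median of 0.289. Pairs from opposite nests lay 0.176 to 0.465 apart with a median of 0.266, so the lowest of the 3 medians was that between the nests. The nest accounted for 11.3% of the summed squared distance, and 66 of the 70 ways to assign the wasps gave as much or more (exact permutation test, p = 0.943, adjusted p = 0.943 over 5 tests on whole libraries). The smallest p that 4 against 4 wasps can give is 0.0286.

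Each allospecific worker was most like a conspecific one. MW30 and MW41 were nearest to MW40, at 0.236 and 0.192, MW32 was nearest to MW42, at 0.176, and MW47 was nearest to MW25, at 0.219. Among conspecific workers, MW40 was nearest to MW41 and MW42 to MW32, while MW21 was nearest to MW42, at 0.280, and MW25 to MW40, at 0.205. The nearest wasp thus came from the other nest for 6 of 8 wasps.

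The leading axis of variation among these brains ran across both nests. The first principal component held 29.99% of the variance. On it the allospecific workers MW30, MW41, MW47 and MW32 lay at -55.9, -45.6, 8.19 and 34.7, and the conspecific workers MW40, MW25, MW42 and MW21 lay at -42.1, -13.6, 36.0 and 78.3. Both groups therefore covered most of its length. The second component held 15.9%, with MW47 at -72.5 and the other 7 workers between -9.86 and 39.1.

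**Figure D1:**
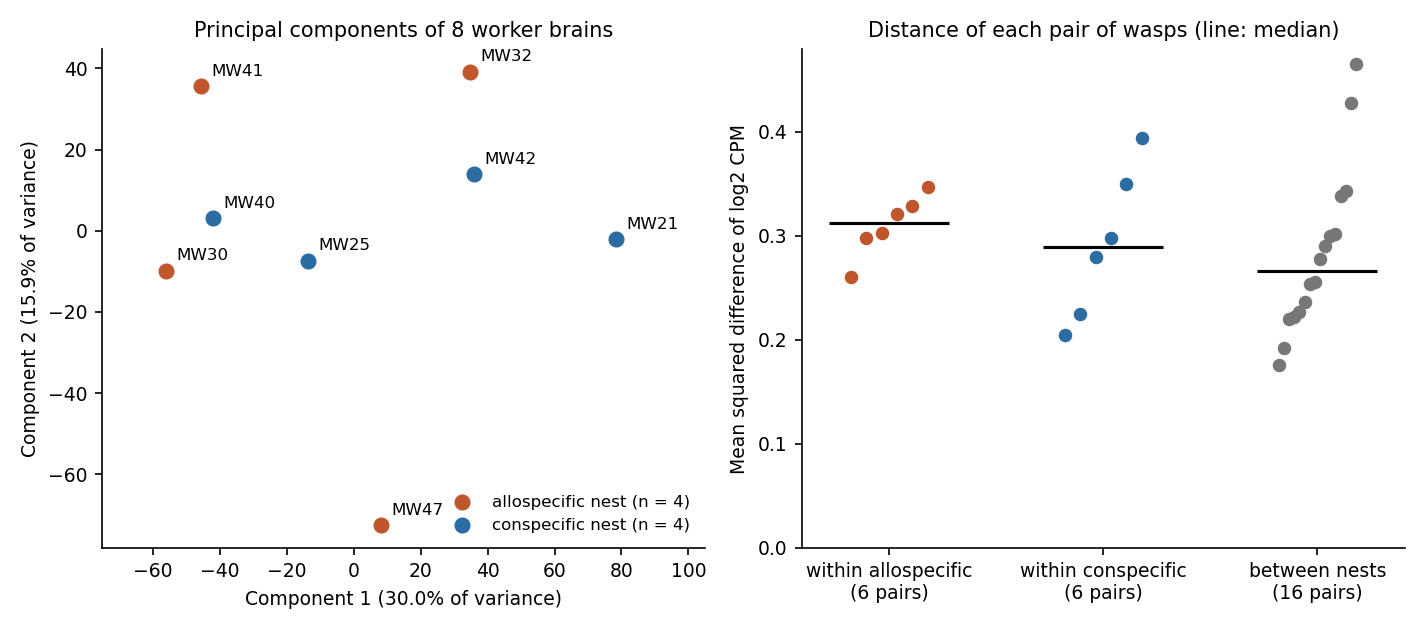
Left, the 8 worker brains on the first and second principal components of log2 CPM, one point a wasp, coloured by nest. Right, the mean squared difference of log2 CPM for each pair of wasps within the allospecific group, within the conspecific group and between nests, with the median as a line. Wasps of both nests are intermingled, and the between-nest median of 0.266 lies under those within allospecific (0.312) and within conspecific (0.289) groups.

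Transcript by transcript, no difference between the nests passed the test. By edgeR's quasi-likelihood test, 0 of 52023 transcripts (0%) had an adjusted p under 0.05, and limma-voom and DESeq2 also called 0. The smallest adjusted p by edgeR rounded to 1. With no adjustment, p lay under 0.05 for 397 transcripts higher (0.763%) and 672 lower (1.29%) in allospecific workers, in all 1069 against the 2601 that evenly spread p-values would give. In bulk brain RNA, a change in the number of cells of a type and a change in RNA per cell cannot be told apart. These 1069 fell into 916 runs of identifiers at most 3 apart. The count moved to 1722 without MW32 and to 1684 without MW40. Among the 7 wasps of July alone, which leaves out MW21, edgeR called 0 transcripts, and 738 had an unadjusted p under 0.05. TMM scaling centres the differences, with 26009 transcripts higher and 26014 lower in allospecific workers. Scaling by library totals alone left 64.7% higher and moved the median log2 difference to 0.07.

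Most nest differences were small on the log2 scale. The median size of the log2 difference was 0.12, and 95% of transcripts differed by less than 0.50. Within a nest group, the median range over the 4 wasps was 0.57 on the log2 scale in allospecific and 0.55 in conspecific workers. A difference between group means tends to be smaller than a range over 4 wasps even with no nest effect. The sizes are therefore unlike measures. In 389 transcripts (0.748%) all 4 allospecific workers stood above all 4 conspecific ones, and in 470 (0.903%) all 4 stood below. Of the 70 ways to assign the wasps, a fraction of 0.0286 sets the groups fully apart in either direction, for values without ties. The 859 transcripts made up 1.65% of those tested, which lies below that fraction. Of these 859 transcripts, 444 also had an unadjusted p under 0.05, against 1069 (2.05%) of all tested transcripts. Overlap and p come from the same values, so this follows in part from the choice.

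**Figure D2:**
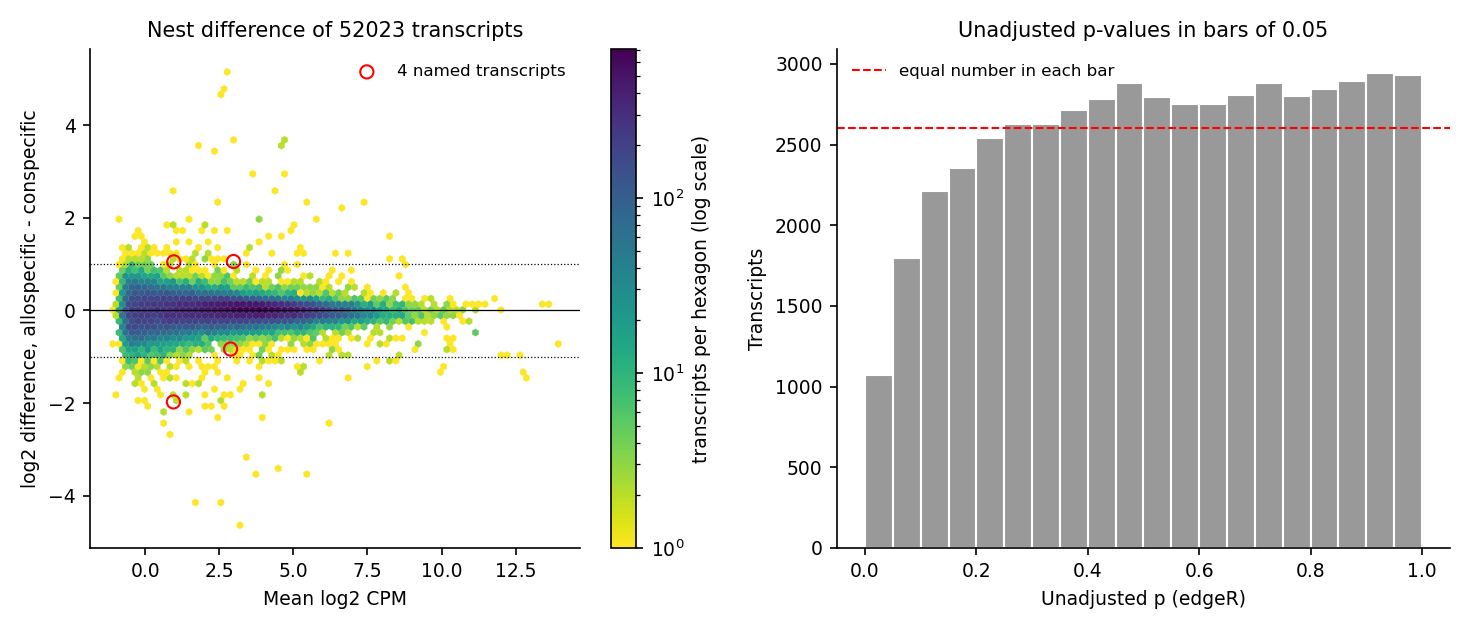
Left, the log2 difference of each of the 52023 transcripts (allospecific minus conspecific) against its mean log2 CPM, shaded by the number of transcripts, with dotted lines at 2-fold and the 4 named transcripts circled. Right, their unadjusted p-values in bars of 0.05 beside the 2601 per bar of an even spread. The first bar, with 1069 transcripts, is the lowest.

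The 4 transcripts with the lowest p, a pair in each direction, show what the strongest candidates look like in single wasps. They were chosen by their p, so their differences are a description. The transcript PmetTSAr2.0-077701 stood at 2.60, 2.21, 2.88 and 2.20 CPM in the allospecific workers MW30, MW32, MW41 and MW47, against 1.41, 1.15, 0.962 and 1.24 CPM in the conspecific workers MW21, MW25, MW40 and MW42. The groups did not overlap, and MW21 was the conspecific worker nearest to the allospecific ones. It averaged 2.47 ± 0.327 CPM in allospecific and 1.19 ± 0.188 CPM in conspecific workers (SD, n = 4 each), on 15 to 55 counts per library. Its log2 difference was 1.05 ± 0.22 (SE, edgeR adjusted p = 1).

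PmetTSAr2.0-073111 stood at 12.9, 10.1, 10.02 and 9.01 CPM in MW30, MW32, MW41 and MW47, against 3.59, 4.97, 3.85 and 7.66 CPM in MW21, MW25, MW40 and MW42. MW42 was the conspecific worker nearest to the allospecific ones, and the groups did not overlap. The means were 10.49 ± 1.65 CPM in allospecific and 5.02 ± 1.86 CPM in conspecific workers (SD, n = 4 each), from 56 to 272 counts. The log2 difference was 1.06 ± 0.23 (SE, edgeR adjusted p = 1).

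PmetTSAr2.0-037704 was lower on allospecific nests, at 4.58, 6.21, 4.78 and 5.38 CPM in MW30, MW32, MW41 and MW47, against 12.2, 8.53, 8.15 and 8.47 CPM in MW21, MW25, MW40 and MW42. MW21, the June wasp, stood highest, and the other 3 conspecific workers also lay above every allospecific one. It averaged 5.24 ± 0.732 CPM in allospecific and 9.33 ± 1.91 CPM in conspecific workers (SD, n = 4 each). The log2 difference came to -0.83 ± 0.17 (SE, edgeR adjusted p = 1). Counts were 83 to 190 per library.

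PmetTSAr2.0-078619, with 8 to 88 counts per library, stood at 0.850, 0.492, 0.748 and 0.871 CPM in MW30, MW32, MW41 and MW47, against 2.31, 1.26, 5.64 and 2.70 CPM in MW21, MW25, MW40 and MW42. The allospecific workers lay close together, and MW40 stood far above the other conspecific workers. The means were 0.740 ± 0.174 CPM and 2.98 ± 1.88 CPM (allospecific and conspecific, SD, n = 4 each). The log2 difference came to -1.98 ± 0.43 (SE, edgeR adjusted p = 1).

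Foundresses took no part in choosing these 4. They reached into both worker groups for PmetTSAr2.0-077701, PmetTSAr2.0-073111 and PmetTSAr2.0-078619, and overlapped only allospecific workers for PmetTSAr2.0-037704. Their CPM comes from a scaling of all 16 libraries. PmetTSAr2.0-077701 ran from 1.22 to 2.90 CPM in foundresses trained to faces and from 1.23 to 2.14 CPM in foundresses trained to patterns, a span that reaches into both worker groups. PmetTSAr2.0-073111 averaged 9.27 ± 2.27 CPM in foundresses trained to faces and 6.87 ± 1.22 CPM in those trained to patterns (SD, n = 4 each). Its range was 6.29 to 11.4 CPM in the face-trained and 5.66 to 8.41 CPM in the pattern-trained foundresses. PmetTSAr2.0-037704 averaged 4.57 ± 1.59 and 6.15 ± 0.669 CPM in the face-trained and the pattern-trained foundresses (SD, n = 4 each), and its highest foundress, at 6.83 CPM, lay under every conspecific worker. PmetTSAr2.0-078619 reached 6.19 CPM in 1 foundress trained to faces and lay between 1.08 and 1.36 CPM in the other 3.

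**Figure D3:**
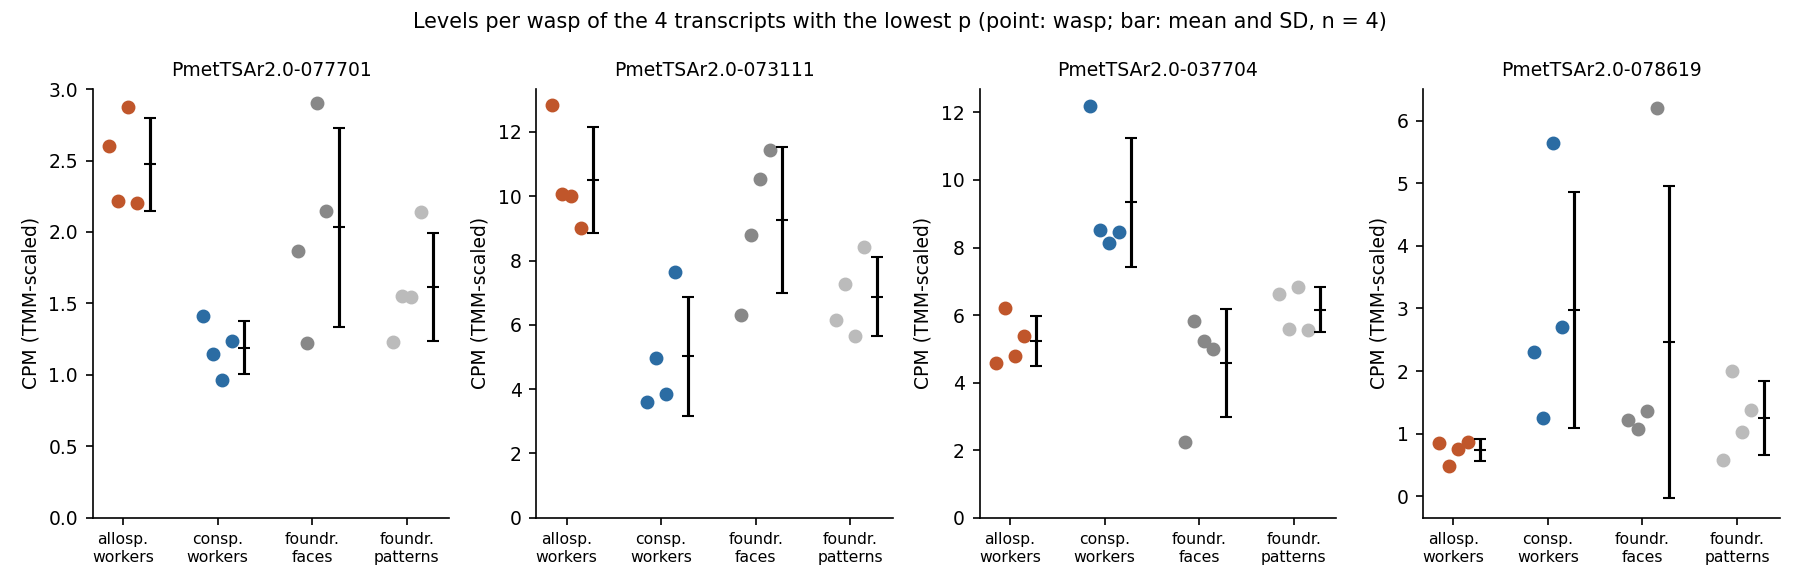
Levels of the 4 named transcripts in TMM-scaled CPM, one point a wasp, in allospecific workers, conspecific workers, foundresses trained to faces and foundresses trained to patterns, with mean and SD (n = 4). The worker groups do not overlap in any of the 4 panels, for example 2.20 to 2.88 against 0.962 to 1.41 CPM for PmetTSAr2.0-077701, and foundresses overlap at least 1 worker group in each.

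Without the low-count filter, edgeR called 27 of 115045 identifiers (11 higher and 16 lower in allospecific workers), of which 17 were among the 52023. The calls included PmetTSAr2.0-073111 (edgeR adjusted p = 8.79e-05), PmetTSAr2.0-037704 (0.0354) and PmetTSAr2.0-078619 (7.16e-06). The nest groups did not overlap in 6 of the 17 (35.3%), against 1.65% of all tested transcripts. The 17 were picked by p in the same wasps, so this share follows in part from the choice. The prior degrees of freedom set how far each transcript's variance is pulled to the common trend. They were infinite at the median without the filter, against 6.01 with it.

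Leaving out MW40 gave the only call of a fit without 1 wasp, for PmetTSAr2.0-079006, which falls outside the naming rule and is described after its values were seen. It had 7, 16, 10 and 14 counts in MW30, MW32, MW41 and MW47, against 217, 171, 7 and 395 counts in MW21, MW25, MW40 and MW42. Of the conspecific workers 3 stood far above every allospecific one, and MW40 stood among the allospecific ones. Its log2 difference was -4.13 with all 8 wasps (edgeR adjusted p = 1) and -4.53 ± 0.36 (SE) without MW40 (edgeR adjusted p = 0.00922). In foundresses it stood at 2.05, 6.90, 7.45 and 17.9 CPM in those trained to faces and at 1.41, 2.88, 0.561 and 32.8 CPM in those trained to patterns. It thus varied among wasps of 1 group outside the worker comparison too.

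Most of the large differences between the nests slipped under 2-fold without some single wasp, though few changed direction. A difference of 2-fold or more was fitted for 115 transcripts higher (0.221%) and 172 lower (0.331%) in allospecific workers, 287 in all, which fell into 232 runs of identifiers at most 3 apart. They were picked by size, so what follows describes them without a test. The groups did not overlap in 36 of the 287 (12.5%), against 1.65% of all tested transcripts. An unadjusted p under 0.05 was found for 118 of the 287 (41.1%), against 2.05% of all. Size enters both the overlap and the p, so both shares follow in part from the choice. When each wasp was left out in turn, 55 transcripts (24 higher and 31 lower) kept at least a 2-fold difference every time, and the other 232 did not. The difference dropped below 2-fold, or turned, in 117 transcripts without MW21 and in 107 without MW30, against 31 to 64 without any of the other 6. The sign turned in 14 without MW21 and in 0 to 6 without any other wasp. With scaling by library totals alone the split was 139 higher and 127 lower.

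Of the 115 higher transcripts, MW30 held the highest level in 68, and MW32, MW41 and MW47 in 18, 15 and 14. Of the 172 lower ones, MW21 held the highest level in 89, MW42 in 42, MW40 in 23 and MW25 in 18. This was sharper in the most abundant of 4 equal bins of transcripts, above 16.4 CPM, where MW30 was highest in 20 of 25 higher and MW21 in 23 of 25 lower transcripts. The median level of the 25 higher ones was 143, 35.8, 14.5 and 25.5 CPM in MW30, MW32, MW41 and MW47, against 12.3, 16.3, 14.9 and 21.8 CPM in MW21, MW25, MW40 and MW42. The median level of the 25 lower ones was 24.5, 48.3, 23.4 and 26.0 CPM in MW30, MW32, MW41 and MW47, against 209 CPM in MW21 and 29.95, 35.5 and 58.0 CPM in MW25, MW40 and MW42. MW30 stood highest in the first set and MW21 in the second, and the medians of the 2 nest groups overlapped in both.

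The number of 2-fold transcripts itself was 252 without MW21 (129 higher and 123 lower in allospecific workers) and 302 without MW30 (94 higher and 208 lower). It was 607 without MW32, 485 without MW40, 483 without MW25, 453 without MW42, 423 without MW47 and 344 without MW41. Each of these fits has a smaller group on 1 side, and the part of that in the counts was not tested.

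**Figure D4:**
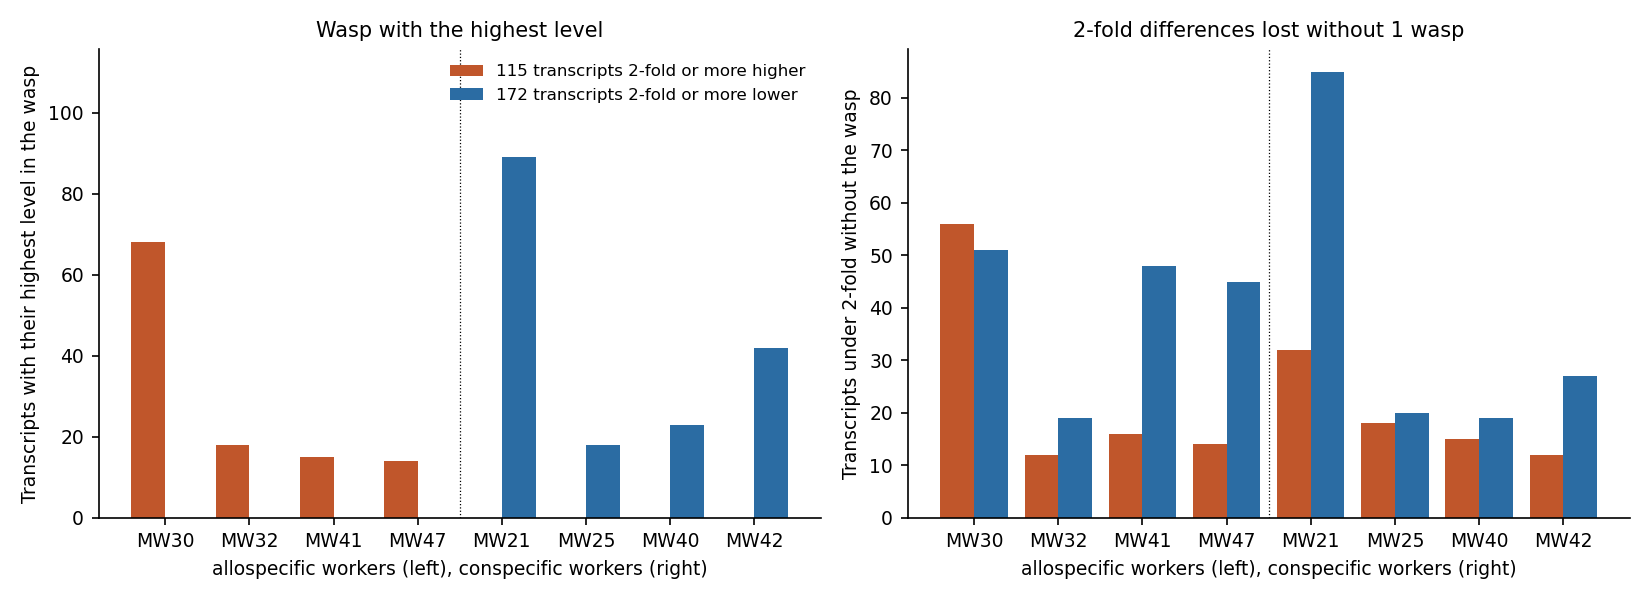
Left, the number of 2-fold transcripts whose highest level was in each wasp, for the 115 higher and the 172 lower in allospecific workers. Right, the number of each that fell under 2-fold without the wasp. MW30 (68 and 56 higher transcripts) and MW21 (89 and 85 lower transcripts) stand out in both panels.

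Over all 52023 transcripts MW21 was at an extreme of the 8 wasps most often. It held the highest level in 19.2% and the lowest in 18.2%, where an even share would be 12.5%. MW30 held the highest in 14.1% and the lowest in 16.1%, and MW41 in 13.1% and 13.4%. MW25 was at an extreme least often, with 7.89% highest and 7.46% lowest. MW21 was also the only June wasp and had the lowest TMM factor. The part of the month in its standing was not tested.

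Abundant transcripts took unequal shares of the libraries, and no nest difference in them passed the test. The 100 most abundant held 15.7%, 19.4%, 13.8% and 16.4% of all counts in MW30, MW32, MW41 and MW47, against 26.2%, 14.7%, 15.6% and 18.9% in MW21, MW25, MW40 and MW42. MW21 stood highest, and the groups overlapped. The log2 share differed by -0.18 between allospecific and conspecific workers (exact two-sided permutation p = 0.514, adjusted p = 0.943 over 5 tests). The most abundant transcript alone ranged from 0.267% in MW41 to 3.53% in MW21, and from 0.664% to 2.32% in the other 6.

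The spread among allospecific workers was not shown to differ from that among conspecific workers. The mean squared distance within the group was 0.310 for allospecific and 0.292 for conspecific wasps, a difference of 0.0180 (exact two-sided permutation p = 0.8, adjusted p = 0.943 over 5 tests). The difference changed sign without MW25 (-0.0141) and without MW42 (-0.00635). Over transcripts, the median SD of log2 CPM was 0.254 and 0.246 in allospecific and conspecific workers, and the SD was larger in allospecific workers for 51.0% of transcripts.

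Fewer identifiers were detected in allospecific than in conspecific workers at 1 common total, a difference that did not pass the test. Thinned to the 14949149 counts of MW40, the libraries would show 81368, 83770, 82174 and 83358 identifiers with a count in MW30, MW32, MW41 and MW47, against 85298, 86267, 82298 and 84886 in MW21, MW25, MW40 and MW42. MW40 lay among the allospecific workers, and the other 3 conspecific workers lay above all of them. The means were 82668 ± 1099 on allospecific and 84687 ± 1695 on conspecific nests (SD, n = 4 each), a difference of -2020 (exact two-sided permutation p = 0.0857, adjusted p = 0.429 over 5 tests). Without MW40 it was -2970 with an exact permutation p of 0.0286, which is the smallest that 4 against 3 wasps can give here, and without any of the other 7 the exact permutation p was 0.0857 to 0.2. With 10 or more counts asked for at the same common total, an alternative chosen after seeing the data, the difference turned to 286 more in allospecific workers (exact permutation p = 0.971). In the libraries as deposited, without thinning, it was 624 more (exact permutation p = 0.457).

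No transcript of moderate abundance was present on 1 nest and missing on the other. Over all identifiers, 0 had 10 or more counts in all 4 wasps of a nest and no count in the other 4. At any count, 115045 identifiers were found in any of the 8 workers. Of these, 62 were found in all 4 allospecific and no conspecific worker, and 85 in all 4 conspecific and no allospecific worker. Their median sums were 5 and 6 counts. The highest sum among the 62 was 233, of which 229 counts came from MW41 alone, and the next was 15.

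For abundant transcripts the 8 libraries bounded the nest difference closely, and for rare ones loosely. The 95% interval of the log2 difference reached 0.43 to either side at the median, and it lay wholly within 2-fold either way in 43633 transcripts (83.9%) and within 1.5-fold in 26724 (51.4%). In the rarest of the 4 bins, up to 2.02 CPM, 53.8% of intervals lay within 2-fold and 2.58% within 1.5-fold. In the most abundant bin, 96.4% lay within 2-fold and 86.8% within 1.5-fold. The intervals are not adjusted for the number of transcripts, and since nothing says that wasps of a group came from separate nests, the spread they rest on is that between these wasps.

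**Figure D5:**
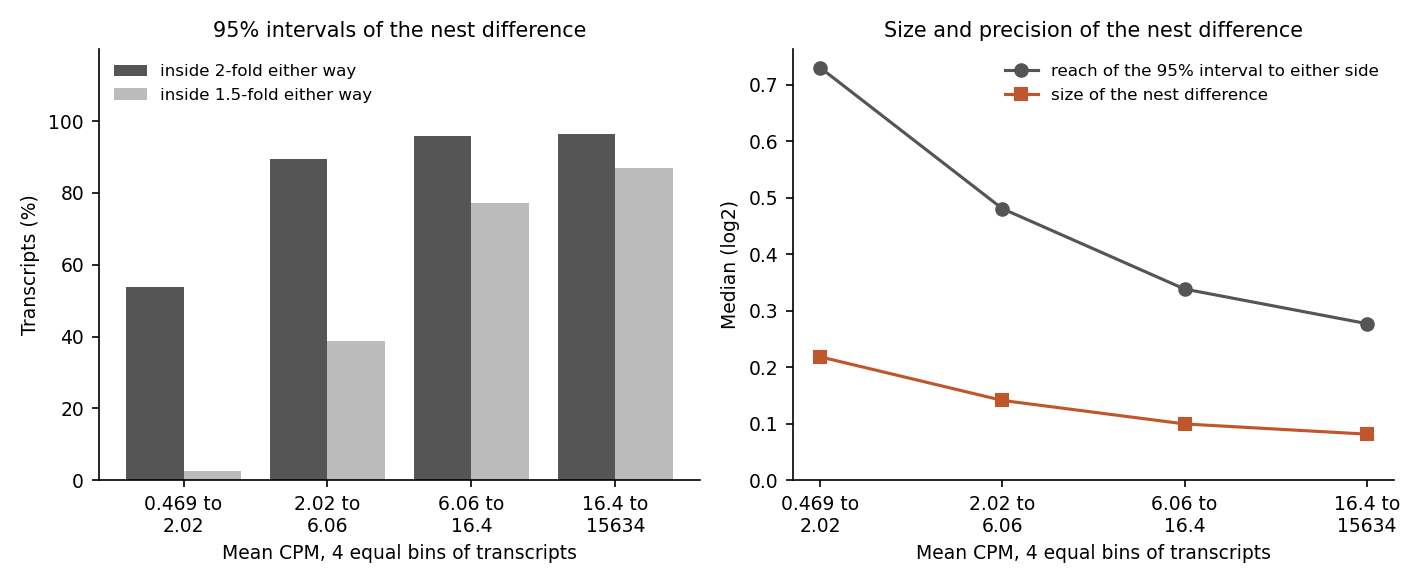
Left, the percentage of transcripts whose 95% interval of the nest difference lay within 2-fold or within 1.5-fold either way, in 4 equal bins of mean CPM. Right, the median reach of that interval to either side and the median size of the difference in each bin, on the log2 scale. In every bin the median difference (0.22 to 0.08) is smaller than the median reach (0.73 to 0.28).

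Neighbouring identifiers were not independent. Deviations from the nest mean of identifiers next to each other correlated at a median of 0.38 over 36387 pairs (8 wasps, which share libraries and depth), and 9.04% of these pairs correlated above 0.9. Identifiers 1000 apart correlated at a median of 0.01 over 32465 pairs, with 0.517% above 0.9. Whether neighbours belong to 1 gene or share reads was not tested, so the number of genes behind a count of transcripts is unknown.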

How the data were processed

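Per the labels' protocols, RNA came from single brains, and 1 µg per wasp went into Illumina TruSeq libraries. The submitters' processing notes name Trimmomatic 0.32, Bowtie2 and eXpress. Neither the transcript set nor strand nor the treatment of shared reads is stated there. The authors deposited counts as whole numbers per transcript identifier, not normalized, which may be rounded estimates.

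Identifiers with 10 or more counts in 4 or more of the 8 worker libraries entered a fit by edgeR 4.0.16 under R 4.3.3 (TMM, robust quasi-likelihood F test, nest as the only term, 6 residual degrees of freedom, Benjamini-Hochberg over all 52023). An SE is the size of the log2 difference over the square root of F. Profiles used log2 CPM with a prior count of 2. Exact permutation tests ran over all 70 assignments. P-values measure the spread between these libraries. Alternatives used DESeq2 1.42.0, limma 3.58.1 and sva 3.50.0. Statistics were tested on simulated data in which transcripts varied independently, unlike the neighbouring identifiers here. The rule named the 2 transcripts with the lowest p in each direction. The gene and marker lists could not be matched to identifiers. The comparison and lists were chosen with earlier results of these data known.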

Additional observations from a re-analysis of the deposited data

Results flagged for a closer look

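In a group of 4, a wasp was marked where its gap to the nearest other was large for the group's whole range (Dixon's test). Among 32 groups of 4 values examined, 2 were marked, and chance marks about 1 in 20. MW40 had 82298 identifiers with a count as deposited, against 88142 to 88836 in the other 3 conspecific workers, and it also had the lowest total. MW21 stood at 12.2 CPM for PmetTSAr2.0-037704, against 8.15 to 8.53 CPM in the other 3 conspecific workers.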

How the results depend on the processing

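The count of 0 calls held with DESeq2 scaling, scaling by library totals alone, and the 100 most abundant transcripts left out. It also held with 10 or more counts required in all 8 libraries, the DESeq2 test, limma-voom with and without sample weights, and non-robust dispersions. It stayed at 0 with all 16 libraries in 1 fit, 1 surrogate variable and an adjusted p under 0.1. It became 27 with no low-count filter and 0 to 1 when each wasp was left out. The 1069 transcripts at an unadjusted p under 0.05 became 4017 with no filter. The 287 of 2-fold became 27013 with no filter and 112 with 10 or more counts in all 8 libraries. The named transcripts kept their direction in every setting that tested them. They were chosen by their p in these same wasps, so this follows in part from the choice. Without 1 wasp, the difference in identifiers at a common total ran from -2970 to -1493, the difference in spread from -0.0141 to 0.0677, and that in total counts from -164792 to 1380170. Asking for 10 or more counts turned the first to 286 at the common total, an alternative chosen after seeing the data, and to 624 without thinning. The cause was not tested. Profile separation by nest was 11.1% to 16.2% in all 13 alternatives, with exact permutation p-values from 0.486 to 1. No paired analysis was possible because the 2 worker groups share no wasp number. With 4 wasps a nest, rare transcripts had wide intervals, and small differences could not be shown.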
